A study of Rattus norvegicus with 12 samples.

Results

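Collagens, laminins, nidogens and the glycoproteins that bind them were followed in the rostral ventrolateral medulla (RVLM) of ageing rats. The set was chosen by gene name: every non-control array probe named as a collagen chain or a laminin chain, or as Nid1, Nid2, Serpinh1, Fn1, Sparc, Lum, Dcn, Bgn or Fbn1. This gave 88 probes of 41012 on the array, for 51 gene names. Both probes of Col4a3bp, a ceramide transfer protein whose name only resembles that of a collagen chain, were set aside, which left 86 probes for 50 genes. Of these, 71 probes for 44 genes were tested, because each array of 1 or more age groups read them well above background. The untested genes included Col8a2, Col10a1, Col12a1, Col14a1 and Col17a1.

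The extracellular matrix of the brain is of several kinds. Fibrillar collagens (types I, III and V) build the tough fibres of the meninges and of the outer coat of larger vessels, and are made mainly by fibroblasts. Basement membranes, the thin sheets around capillaries and under the pia, are woven from a collagen IV network and a laminin network, which nidogens bridge. Nearly all collagen chains fold in the endoplasmic reticulum with the help of the chaperone that Serpinh1 encodes.

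RNA came from micropunched RVLM, the brainstem region that drives sympathetic outflow, of male F344 rats, an inbred strain, supplied through a National Institute of Aging contract. Young animals were 3 months old, middle-aged animals 12 months and aged animals 24 months, with 3 animals in each group. The labels name no treatment; all animals were decapitated under isoflurane anaesthesia and the brains were frozen. Dye-labelled RNA was hybridised to 12 single-colour arrays with probes of 60 bases, because replicate 3 of each age was run on 2 arrays, which were averaged. The arrays lay on 3 slides, and only slide 3 held both young and aged RNA, each from 1 animal. The share of spots clear of background was 73.5% to 77.1% per array, 0 spots were saturated, and the 2 arrays of 1 animal differed over the matrix probes by a median of 0.065 to 0.071 log2 units. Values are log2 signals minus the 75th percentile of the array, so that a probe's level can be set against the same probe in other animals but not against another probe. Of the RVLM neuron markers, the catecholamine enzyme genes Th and Dbh gave signals of 1.21 to 2.23 and −0.39 to 1.22, and 0 of 8 tested markers passed between aged and young animals. Differences were tested with limma over all 29797 probes that were above background, with Benjamini-Hochberg adjustment, and a probe passed at an adjusted p under 0.05. Errors on differences are limma standard errors (SE) and errors on means are SDs over 3 animals.

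The probe sequences show which piece of each gene was read; they are the arrays' own sequences, with positions on rat build rn3, and are given for the genes on which the comparisons turn. Nid1 at chr17:66869378-66870231 and Nid2 at chr15:4801457-4801516, both on the minus strand, were read by the first 2 probes. Col4a5 was read by a probe at chrX:36973263-36973322, which passed the test, and by a second at chrX:37012452-37012511, which did not, both on the minus strand. In the second, capitals mark a run of 5 glycine codons set 3 codons apart, the spacing of the collagen triple helix; later glycine codons, after a break in that spacing, are not marked, and the first probe has 0 codons in such a run. The Col3a1 probe lies at chr9:44318879-44318938 on the plus strand. The Nid1 probe is spread over 854 bases of the genome.
Nid1: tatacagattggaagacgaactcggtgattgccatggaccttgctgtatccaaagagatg
Nid2: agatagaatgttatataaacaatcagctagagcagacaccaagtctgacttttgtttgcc
Col4a5, passing probe: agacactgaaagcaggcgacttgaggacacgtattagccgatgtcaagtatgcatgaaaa
Col4a5, second probe: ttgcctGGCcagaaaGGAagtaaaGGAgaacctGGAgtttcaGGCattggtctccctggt
Col3a1: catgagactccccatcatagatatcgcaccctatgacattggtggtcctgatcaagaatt

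Between young and aged animals 4 matrix genes fell: the nidogens Nid1 and Nid2, the collagen IV chain Col4a5 and the collagen chaperone Serpinh1. The falls were 1.41-fold to 1.65-fold. They were 4 of 71 probes, where 138 of all 29797 probes (0.463%) fell, and 0 matrix probes rose, where 1.39% of all probes did, which makes 1.85% of all probes in either direction. Of the 4 genes, 3 belong to the basement membrane and 0 to the fibrillar collagens. Of the 44 genes tested, 6 were basement membrane collagens, 10 laminins or nidogens and 10 fibrillar collagens. At an unadjusted limma p under 0.05, 33.3%, 50% and 40% of these were lower, against 5.54% of all probes. A difference between the classes was not tested. In bulk tissue, fewer cells of a type and less RNA per cell cannot be told apart.

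Nid1 encodes nidogen 1, which ties laminin to collagen IV. Its signal was −0.26, −0.71 and −0.64 in young animals, −1.23, −1.12 and −0.89 in middle-aged animals and −1.18, −1.27 and −1.32 in the aged. All aged and all middle-aged animals lay below all young animals. The means were −0.54 ± 0.24, −1.08 ± 0.17 and −1.26 ± 0.07 (SD, n = 3 each). Aged animals were lower than young by 1.65-fold (log2 difference −0.72 ± 0.13, adjusted p = 0.0328). Another, much dimmer Nid1 probe, well above background on 3 of 4 young, 4 of 4 middle-aged and 2 of 4 aged arrays, gave −0.21 ± 0.22 (adjusted p = 0.692).

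Nid2, the second nidogen, read −1.32, −1.65 and −1.56 in young animals, −2.09, −2.04 and −1.99 in middle-aged animals and −1.97, −2.05 and −2.10 in aged animals. The young animals were above all 6 older animals, and the older groups had the same mean, −2.04. The aged-minus-young difference was −0.53 ± 0.09, or 1.44-fold lower (adjusted p = 0.0286). For middle-aged minus young it was also −0.53 ± 0.09, with an adjusted p of 0.105. Nid2 was the only matrix gene to pass the moderated F test for a difference among the 3 ages (adjusted p = 0.0467), which 304 of all probes (1.02%) passed.

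Col4a5 encodes a collagen IV chain from the X chromosome. Its passing probe gave −1.70, −1.98 and −1.93 in young, −2.42, −2.15 and −2.23 in middle-aged and −2.43, −2.53 and −2.72 in aged animals. The 3 ages did not overlap, and the group means stepped down from −1.87 ± 0.15 to −2.26 ± 0.14 and −2.56 ± 0.15. The fall from young to aged was 1.61-fold (−0.69 ± 0.11, adjusted p = 0.0208). The probe in the triple-helix stretch was dim: it was well above background on 4 of 4 young, 0 of 4 middle-aged and 3 of 4 aged arrays, and its aged-minus-young difference was 0.06 ± 0.15.

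Serpinh1 read 1.28, 1.1 and 1.11 in young animals, 0.85, 1.05 and 0.96 in middle-aged animals and 0.69, 0.66 and 0.65 in aged animals. Here too the 3 ages did not overlap, and the aged animals had an SD of 0.02. Aged animals were 1.41-fold lower than young (−0.50 ± 0.08, adjusted p = 0.0205).

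**Figure D1:**
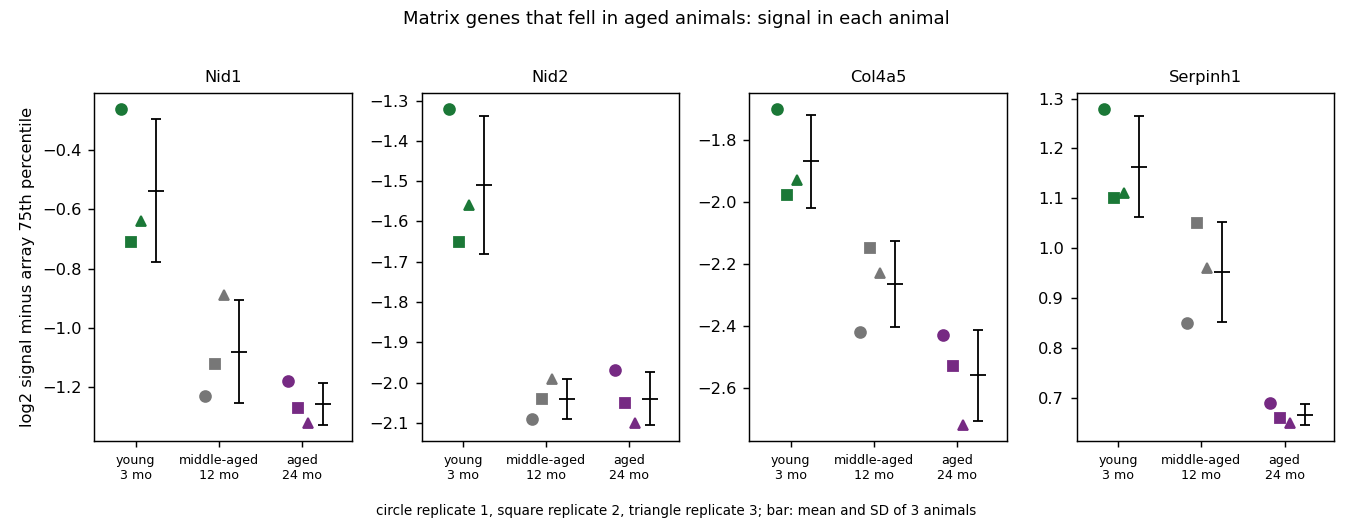
Log2 signal minus the array's 75th percentile (vertical axis) of Nid1, Nid2, Col4a5 and Serpinh1 in each of 9 animals by age group, with the mean and SD of 3 animals beside the points. The aged animals lie below all young animals for each gene, and for Nid2 the middle-aged and aged means are both −2.04.

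With slide as a block the differences were −0.79 for Nid1, −0.77 for Col4a5 and −0.58 for Serpinh1, which still passed (adjusted p = 0.039, 0.0183 and 0.0149), and −0.50 for Nid2, which did not (adjusted p = 0.0895). Within slide 3, between 1 young and 1 aged animal, they were −0.70 for Nid1, −0.83 for Col4a5, −0.45 for Serpinh1 and −0.51 for Nid2. Each gene stayed lower whichever animal was left out, but the smaller fits often missed the threshold. The call was lost for Col4a5 on removing replicate 1 or 3 of the young or replicate 2 or 3 of the aged animals (adjusted p 0.0643 to 0.0671). For Serpinh1 it was lost without any 1 young or aged animal (0.0519 to 0.0761). Nid1 lost it without any 1 young or aged animal or middle-aged replicate 2 (0.0504 to 0.106). Nid2 lost it without young replicate 1 or 3, middle-aged replicate 3 or any 1 aged animal (0.0513 to 0.0946).

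Counted over all tested matrix genes, those that passed included, most differences were below 0. Of the 44 genes, taking for each its brightest probe, 33 (75%) had a difference below 0 between aged and young animals, where 44.9% of all probes did. The unadjusted limma p was under 0.05 for 16 genes (36.4%) that were lower and 3 that were higher, against 5.54% and 9.59% of all probes. For 17 genes (38.6%) all aged animals lay below all young animals, against 9.73% of all probes, and for 2 genes all lay above, against 13.2%. The median difference was −0.24 over the 44 genes and 0.022 over all probes. By class the medians were −0.43 for laminins and nidogens, −0.32 for fibrillar collagens, −0.25 for the glycoproteins, and −0.03 for both the basement membrane collagens and the other collagens.

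**Figure D2:**
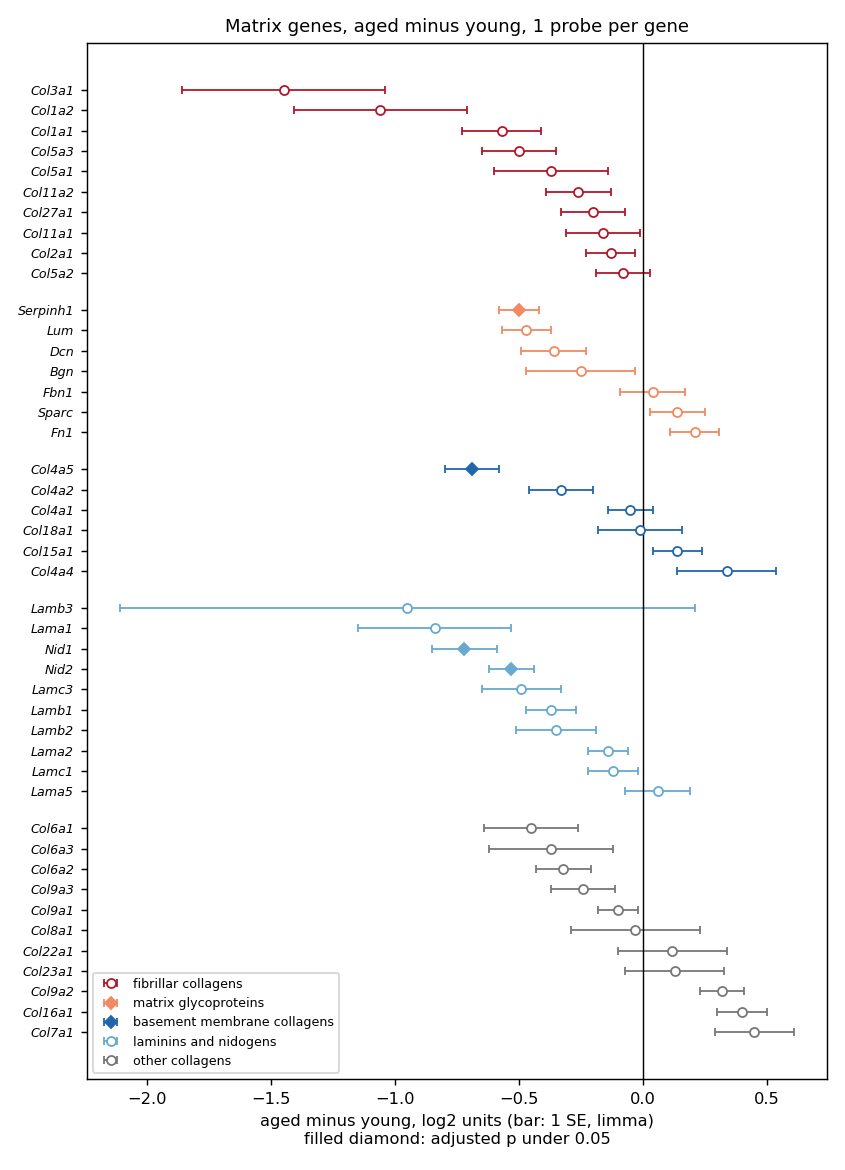
Aged minus young difference in log2 units (horizontal axis) with its limma SE for the brightest probe of each of 44 matrix genes, grouped by class and sorted within it. Filled diamonds mark the 4 genes that passed; all 10 fibrillar collagen genes and 9 of 10 laminin and nidogen genes lie left of 0.

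Promoter windows are shown for Nid1, Serpinh1 and Col4a5, 3 of the 4 genes that fell (none is printed for Nid2), and, for contrast, for the fibrillar collagen Col1a2 and the piece shared by Col4a1 and Col4a2, which are transcribed away from each other. They run from 250 bases before to 50 after the RefSeq start (build GRCr8), and 36 of the 50 genes matched an entry by symbol. Capitals mark exact matches on either strand to 4 motifs, and the marked stretches do not overlap. The GC box was searched as GGGCGG. The next motif, the CCAAT box, was searched by the letters of its name. The TATA box was searched as TATAAA. The heat shock element was searched as GAANNTTC, where N is any base. Nid1 lies at chr17:93069036-93069335 on the plus strand, Serpinh1 at chr1:163062927-163063226 on the minus strand, Col4a5 at chrX:109907109-109907408 on the plus strand, Col1a2 at chr4:33518307-33518606 on the plus strand and the shared piece at chr16:84885471-84885646, written on the plus strand.
Nid1: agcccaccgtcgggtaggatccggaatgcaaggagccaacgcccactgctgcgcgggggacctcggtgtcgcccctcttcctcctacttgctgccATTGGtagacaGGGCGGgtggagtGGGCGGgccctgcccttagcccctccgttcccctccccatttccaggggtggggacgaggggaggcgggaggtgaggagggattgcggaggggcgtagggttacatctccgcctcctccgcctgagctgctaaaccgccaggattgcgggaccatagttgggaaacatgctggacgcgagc
Serpinh1: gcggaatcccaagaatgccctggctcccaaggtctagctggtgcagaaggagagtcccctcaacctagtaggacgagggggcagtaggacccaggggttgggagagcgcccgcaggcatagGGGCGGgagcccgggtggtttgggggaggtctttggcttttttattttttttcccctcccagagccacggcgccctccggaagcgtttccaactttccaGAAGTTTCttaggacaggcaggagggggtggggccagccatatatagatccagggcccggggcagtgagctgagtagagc
Col4a5: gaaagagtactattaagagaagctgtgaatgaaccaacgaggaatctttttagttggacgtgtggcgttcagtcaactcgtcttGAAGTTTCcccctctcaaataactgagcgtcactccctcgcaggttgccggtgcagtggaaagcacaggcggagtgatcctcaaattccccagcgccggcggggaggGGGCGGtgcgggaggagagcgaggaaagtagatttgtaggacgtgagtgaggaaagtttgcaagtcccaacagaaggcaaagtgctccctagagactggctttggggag
Col1a2: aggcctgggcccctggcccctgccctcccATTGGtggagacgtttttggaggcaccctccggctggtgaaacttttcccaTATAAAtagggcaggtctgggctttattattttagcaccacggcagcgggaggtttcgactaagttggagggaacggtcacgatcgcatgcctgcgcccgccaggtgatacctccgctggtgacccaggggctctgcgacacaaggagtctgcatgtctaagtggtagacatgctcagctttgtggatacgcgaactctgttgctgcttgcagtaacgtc
Col4a1 and Col4a2, shared piece: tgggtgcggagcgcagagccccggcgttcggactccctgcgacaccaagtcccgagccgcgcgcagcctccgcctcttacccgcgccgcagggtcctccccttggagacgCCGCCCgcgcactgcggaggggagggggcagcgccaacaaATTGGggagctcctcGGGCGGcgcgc

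Nid1 held 2 GC boxes and 1 CCAAT box, and Serpinh1 and Col4a5 each held 1 GC box and 1 heat shock element. Col1a2 held 1 CCAAT box and 1 TATA box and 0 GC boxes. Over the matrix genes with an entry, 21 of 36 (58.3%) held a GC box, against 33.1% of 33469 windows in RefSeq. A CCAAT box was in 12 (33.3%), against 37.5%, a TATA box in 3 (8.33%), against 14.2%, and a heat shock element in 2 (5.56%), against 8.59%. The 2 genes with the heat shock element letters were Serpinh1 and Col4a5. A matrix gene counted if any of its windows matched, while the RefSeq share is per window. The RefSeq windows were not sorted by kind of gene, so the shares are not like for like. A match says only that the letters are there.

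The largest differences of the set were in the fibrillar collagens I and III, but 0 of the 18 fibrillar probes passed. All 10 genes were below 0 between aged and young animals, as were 44.9% of all probes. For 5 the aged animals lay below all young animals, against 9.73% of all probes. Col3a1, the chain of collagen III, read 0.39, −1.36 and −0.94 in young, −1.78, −1.51 and −1.08 in middle-aged and −1.96, −1.84 and −2.47 in aged animals. The aged animals lay below all others, and young replicate 1 was the one high animal. The difference was −1.45 ± 0.41, or 2.73-fold lower, with an adjusted p of 0.143.

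Col1a1 and Col1a2 encode the chains of collagen I. The Col1a1 probe with the largest difference read 0.74, −0.43 and 0.01 in young, −1.05, −1.61 and −0.75 in middle-aged and −1.33, −1.18 and −1.91 in aged animals. All young animals were above all older ones (aged minus young −1.58 ± 0.33, 2.99-fold, adjusted p = 0.0548). The other Col1a1 probes, which lie close to it, gave −0.57 ± 0.16 (adjusted p = 0.147) and −0.42 ± 0.14 (adjusted p = 0.217), so the size of the Col1a1 difference depended on the probe. The brighter Col1a2 probe read 2.68, 1.24 and 1.5 in young, 0.71, 0.71 and 1.01 in middle-aged and 0.66, 1.19 and 0.41 in aged animals. The young animals were again the highest, by a narrow margin over aged replicate 2, and the difference was −1.06 ± 0.35 (adjusted p = 0.209). The dimmer Col1a2 probe gave −1.30 ± 0.38 (adjusted p = 0.156).

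**Figure D3:**
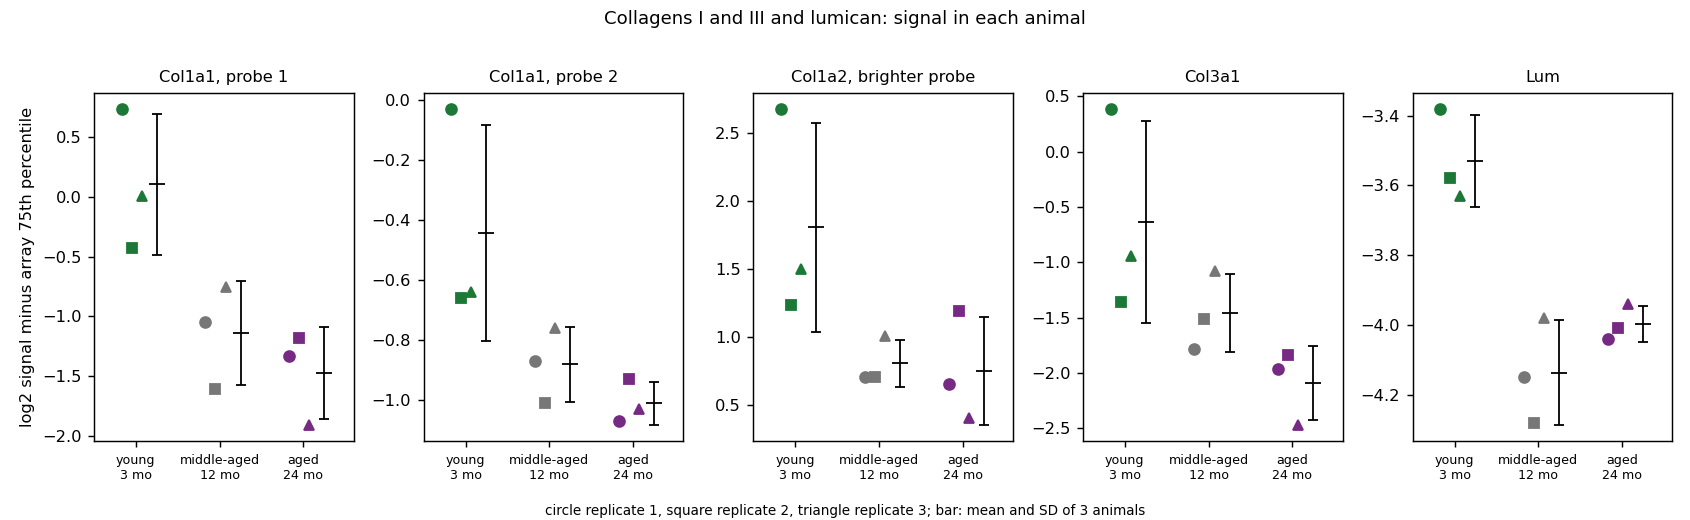
Log2 signal minus the array's 75th percentile (vertical axis) in each of 9 animals for 2 Col1a1 probes, the brighter Col1a2 probe, Col3a1 and Lum, with the mean and SD of 3 animals. Young replicate 1 is the highest point in all 5 panels, and the Col3a1 young values span −1.36 to 0.39.

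Young replicate 1 was the highest of the 9 animals for 9 of the 10 genes of a fibrillar and meningeal set (Col1a1, Col1a2, Col3a1, Col5a1, Col5a2, Fn1, Lum, Dcn, Bgn and Fbn1). It was also the highest for 11 of 13 tested markers of meningeal fibroblasts. The transporter gene Slc6a13 read 0.06 in it and −1.66 to −1.14 in the other 8 animals, and the retinoic acid enzyme gene Aldh1a2 read −1.93 against −4.33 to −3.16. The median over the marker list, relative to the young mean of each gene, was 0.67 in young replicate 1, −0.39 and −0.35 in the other young animals, −0.37 to −0.26 in middle-aged and −0.37 to −0.14 in aged animals. The same median over the fibrillar set was 0.29, −0.21 and −0.11 in young animals, and ran from −0.47 to −0.26 at 12 months and from −0.46 to −0.18 at 24 months. The part of meningeal tissue in the fibrillar differences was not tested.

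Without young replicate 1, counts chosen for this check after the data were seen changed little in direction but more in size. Of the 10 fibrillar collagen genes 9 stayed below 0, where 46.6% of all probes were. For 5 the aged animals lay below both remaining young animals, where 15.8% of all probes did. The class median moved from −0.32 to −0.17. The Col3a1 difference became −0.94 (adjusted p = 0.183), that of the 2 Col1a1 probes −1.26 (0.12) and −0.36 (0.17), and that of the brighter Col1a2 probe −0.62 (0.299). With slide as a block and all animals kept, Col3a1 was −1.60 and Col1a2 −1.12, and within slide 3 they were −1.55 and −1.11.

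A basement membrane set of 13 tested genes is given in the same way. It holds the collagen IV chains Col4a1 and Col4a2, Col15a1, Col18a1, laminin chains and nidogens. It leaves out Col4a4, Col4a5 and Lamb3, which were tested too. Its median per animal was 0.02, −0.05 and −0.02 in young animals, −0.16, −0.19 and −0.26 at 12 months and −0.17, −0.19 and −0.41 at 24 months. On this median all 6 older animals were below all young animals, and the young animals spanned −0.05 to 0.02. For the genes left out, the aged-minus-young differences were −0.69 for Col4a5 (passing probe), 0.34 for Col4a4 and −0.95 for Lamb3 (first probe). Young replicate 1 was the highest animal for 6 of the 13 genes of the set. It was also the highest for each gene that passed between aged and young: Nid1 (−0.26), Nid2 (−1.32), Col4a5 (−1.70) and Serpinh1 (1.28). The share of all probes that were highest in this animal was not counted. In the laminin and nidogen class, the median difference between aged and young was −0.43 with all animals and −0.41 without young replicate 1.

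**Figure D4:**
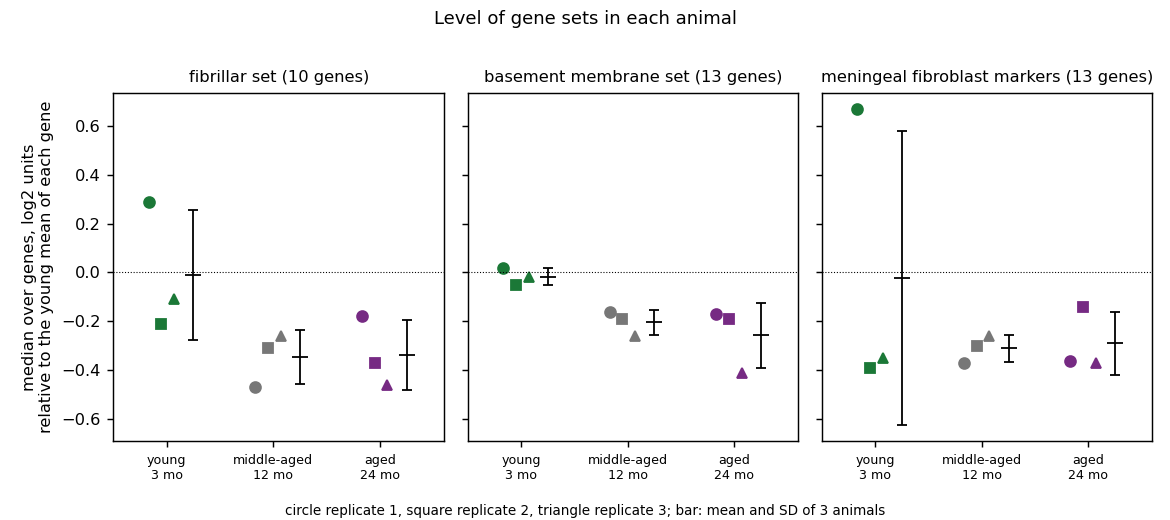
Median over genes of the log2 signal relative to the young mean of each gene (vertical axis) for the fibrillar set, the basement membrane set and the meningeal fibroblast markers, in each of 9 animals, with the mean and SD of 3 animals. Young replicate 1 stands at 0.29 and 0.67 in the fibrillar and meningeal panels and at 0.02 in the basement membrane panel.

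The basement membrane is carried in the brain mostly by vessels, so markers of vascular cells are given beside it. Of 13 endothelial markers 0 passed, with a median aged-minus-young difference of −0.08 and medians per animal of −0.08 to 0.04 in young, −0.18 to −0.06 in middle-aged and −0.16 to 0.03 in aged animals. Of 12 pericyte and smooth muscle markers 0 passed, with a median of −0.02. The lowest adjusted p in the endothelial list was that of Vwf (0.52, adjusted p = 0.133). In the pericyte and smooth muscle list it was that of Vtn (−0.44, adjusted p = 0.0592). Among microglia markers, 8 of 10 rose in aged animals, among them Trem2 (1.82, adjusted p = 0.000469). The microglia list medians were −0.09 to 0.09 in young, 0.40 to 0.63 in middle-aged and 0.79 to 0.97 in aged animals. Of 6 oligodendrocyte markers 2, Mal and Ugt8, fell (−0.51 and −0.93), and the list medians were −0.02 to 0.05, −0.46 to −0.44 and −0.55 to −0.31. Astrocyte markers (8), choroid plexus markers (5) and erythroid markers (2) had 0 passing, with medians of −0.05, −0.15 and 0.90, and of 6 Schwann cell markers 1, again Mal, fell. The part of these cell types in the matrix differences was not tested.

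Among the remaining fibrillar collagens, Col5a3, a chain of collagen V, which seeds collagen I fibres, read 1.06, 0.88 and 0.82 in young, 1.08, 0.73 and 0.86 in middle-aged and 0.50, 0.65 and 0.10 in aged animals. The aged animals were the 3 lowest, and the difference from young was −0.50 ± 0.15 (adjusted p = 0.171). Col5a1 was at −0.37 ± 0.23 and Col5a2 at −0.08 ± 0.11. Col11a1 and Col11a2, whose chains join fibrils of cartilage type, were at −0.16 ± 0.15 and −0.26 ± 0.13, and Col2a1, the main cartilage collagen, at −0.13 ± 0.10. The other tested Col11a1 probes gave −0.11 ± 0.14 and 0.15 ± 0.32. Col27a1 was at −0.20 ± 0.13.

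Of the 7 glycoprotein genes Serpinh1 fell and the other 6 did not pass. Lum, or lumican, a small leucine-rich proteoglycan that spaces collagen fibres, read −3.38, −3.58 and −3.63 in young, −4.15, −4.28 and −3.98 in middle-aged and −4.04, −4.01 and −3.94 in aged animals. All young animals were above all older ones, by −0.47 ± 0.10 for aged (adjusted p = 0.0597) and −0.61 ± 0.10 for middle-aged animals (adjusted p = 0.0825). Decorin (Dcn) and biglycan (Bgn), of the same proteoglycan family, were at −0.36 ± 0.13 (adjusted p = 0.247) and −0.25 ± 0.22 (adjusted p = 0.625). Without young replicate 1 the Bgn difference was −0.01. Fibronectin (Fn1), which cells bind through integrins, was at 0.21 ± 0.10 (adjusted p = 0.375) and Sparc, a collagen-binding glycoprotein, at 0.14 ± 0.11 (0.602). The brighter probe of the microfibril gene Fbn1 was at 0.04 ± 0.13 (0.909) and its other probe at −0.16 ± 0.13 (0.578). Lum passed under quantile normalization (−0.54, adjusted p = 0.0339) and in the authors' processed values (−0.57, 0.0285), and with slide as a block was at −0.37 (0.552).

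Collagen IV gave unlike readings within genes. The brighter Col4a1 probe read 2.39 to 2.62 in young, 2.41 to 2.65 in middle-aged and 2.42 to 2.53 in aged animals, with a difference of −0.05 ± 0.09. Another Col4a1 probe read 0.31, −0.05 and 0.07 in young, −0.18, −0.16 and −0.04 in middle-aged and −0.22, −0.42 and −0.33 in aged animals. On that probe the aged animals were below all others, with a difference of −0.43 ± 0.11 (adjusted p = 0.0909). Col4a2, which shares its promoter region with Col4a1, was at −0.33 ± 0.13 (adjusted p = 0.271), with young animals between −2.61 and −2.57 and aged animals between −3.17 and −2.78. Col4a4 was at 0.34 ± 0.20. The chains Col15a1 and Col18a1, which hold basement membranes to the matrix beneath, were at 0.14 ± 0.10 and −0.01 ± 0.17.

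Of the laminin chains, 0 passed. Lamb1, the beta chain of early and vascular laminins, read −2.99, −3.02 and −2.90 in young, −3.43, −3.16 and −3.50 in middle-aged and −3.29, −3.35 and −3.38 in aged animals. Young animals stood above all older animals, and the difference was −0.37 ± 0.10 for aged (adjusted p = 0.114) and −0.40 ± 0.10 for middle-aged animals (adjusted p = 0.285). Lama1, a chain of the pial basement membrane, read −4.02 to −3.69 in aged animals, all below the young animals at −3.57 to −2.37 (−0.84 ± 0.31, adjusted p = 0.257). Lamb2 was at −0.35 ± 0.16 and Lamc1, the gamma chain of most laminins, at −0.12 ± 0.10. The brighter of 2 Lamc3 probes gave −0.49 ± 0.16 (adjusted p = 0.202) and the other −0.12 ± 0.24. Lama2, the alpha chain of muscle and of vessel-facing astrocyte end-feet, was between −0.18 and −0.04 on 4 probes, and Lama5, an endothelial chain, between 0.06 and 0.12 on 3 probes.

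Lamb3, a chain of epithelial laminin, varied more between animals than any other matrix gene tested, and its age groups overlapped. Of its tested probes, 2 moved together. The first read 0.79, 2.67 and −1.35 in young, 0.13, 0.72 and 2.46 in middle-aged and −0.70, −1.79 and 1.76 in aged animals. The second read −0.30, 1.65 and −2.41, then −1.20, −0.38 and 1.27, then −1.85, −2.94 and 0.59. The high animals on both were replicate 2 of the young group and replicate 3 of each older group. The 2 arrays of the same animal, which may carry the same RNA extract, gave −1.38 and −1.31 for young replicate 3, 2.48 and 2.45 for middle-aged replicate 3, and 1.78 and 1.75 for aged replicate 3. The third probe stayed between −1.19 and −0.87 in all 9 animals. The aged-minus-young differences were −0.95 ± 1.16, −1.05 ± 1.17 and −0.10 ± 0.08, and within slide 3 the first probe was higher in the aged animal, by 3.07. The first probe and the third are printed to show what was read, the latter as the steady probe; they lie on the plus strand at chr13:109379316-109379375 and chr13:109371686-109371745, the third upstream of the first.
Lamb3, first probe: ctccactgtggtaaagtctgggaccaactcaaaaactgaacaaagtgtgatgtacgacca
Lamb3, steady probe: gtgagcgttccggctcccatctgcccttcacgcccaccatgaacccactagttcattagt

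**Figure D5:**
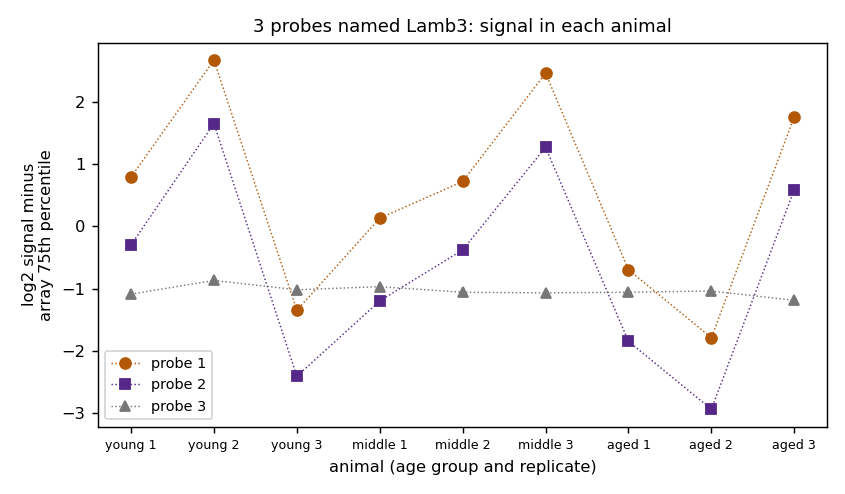
Log2 signal minus the array's 75th percentile (vertical axis) for 3 probes named Lamb3 in each of 9 animals (horizontal axis; dotted lines only join points of the same probe). The first 2 probes peak together in 1 animal of each age, while the third stays between −1.19 and −0.87.

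Outside these classes, 11 other collagen genes were tested and 0 passed. The microfibril chains of collagen VI were at −0.45 ± 0.19 for Col6a1, −0.32 ± 0.11 for Col6a2 and −0.37 ± 0.25 for Col6a3. Col16a1, a collagen that sits on the surface of fibrils, read 3.49, 3.42 and 3.61 in young, 3.81, 3.60 and 3.70 in middle-aged and 4.03, 3.94 and 3.77 in aged animals. All aged animals were above all young animals (0.40 ± 0.10, adjusted p = 0.0872), and it passed when the variance prior followed the intensity (adjusted p = 0.0468). Within slide 3 the difference on this probe was 0.15. A dimmer Col16a1 probe gave 0.17 ± 0.18 (adjusted p = 0.688), and its aged and young animals overlapped. Col9a2, a chain of another fibril-associated collagen, was at 0.32 ± 0.09 (adjusted p = 0.124) and Col7a1, the collagen of anchoring fibrils, at 0.45 ± 0.16 (adjusted p = 0.234). For these 3 genes the difference had the opposite sign to that of collagens I and III.

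Differences of genes that lie next to each other are given side by side; none of these genes passed and the difference between neighbours was not tested. Col3a1 and Col5a2, neighbours on chromosome 9 among protein-coding genes of the RefSeq table, were at −1.45 and −0.08. Dcn and Lum, neighbours on chromosome 7, were at −0.36 and −0.47, and Col6a1 and Col6a2 on chromosome 20 at −0.45 and −0.32.

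Between young and middle-aged animals 0 of 71 matrix probes passed, where 52 of all probes (0.175%) did, 0.0403% as falls and 0.134% as rises. The difference was below 0 for 33 of 44 genes, as for 47.5% of all probes. An unadjusted limma p under 0.05 was found for 11 of 44 genes that were lower (2.79% of all probes) and for 1 that was higher (3.49%). For 14 of 44 genes the middle-aged animals all lay below the young animals, against 4.9% of all probes, and for 1 gene all lay above, against 6.32%. Of the 14 genes, 7 were among the 10 laminin and nidogen genes. Both this comparison and the one above use the same young animals. Between middle-aged and aged animals 0 of 71 matrix probes passed, where 1 of all probes (0.00336%) did. The aged animals all lay below the middle-aged for 8 genes (7.05% of all probes) and above for 3 (9.77%), and 27 differences were below 0 (46.1% of all probes). At an unadjusted p under 0.05, 5 genes were lower (3.39% of all probes) and 2 higher (7.09%), and the median over the 44 genes was −0.06. The aged-minus-middle-aged difference was 0.00 for Nid2, 0.03 for Lamb1 and 0.14 for Lum, which had lower values at 12 months than at 3, and −0.29 for Serpinh1 and −0.47 for Col5a3.

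Genes that make, cut or bind the matrix mostly stayed under the threshold. Of 18 tested collagen-processing genes, which include prolyl and lysyl hydroxylases and lysyl oxidases, 0 passed and the median was −0.07. Of 17 matrix proteases and inhibitors 1 fell: Mmp14, a membrane-bound protease that cleaves fibrillar collagen. It read 1.89, 1.48 and 1.73 in young, 1.27, 1.21 and 1.48 in middle-aged and 0.76, 0.57 and 0.75 in aged animals, a fall of 1.01 on the log2 scale with no overlap between aged and young (adjusted p = 0.00495). Of 14 matrix receptor genes 0 passed. Of 24 other matrix genes 1, the fibulin Fbln2, which binds nidogen and laminin, fell (−0.56, adjusted p = 0.0382), from 0.39 to 0.63 in young to −0.26 to 0.06 in aged animals. Of 18 genes of transforming growth factor beta signalling 1, the matricellular Ctgf, rose (0.94, adjusted p = 0.0103), from −0.30 to 0.06 in young to 0.68 to 0.99 in aged animals.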

How the data were processed

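Array scans were quantified by the authors as linear fluorescence intensity per spot; the software was Agilent Feature Extraction 9.5.1.1, per the submitters' processing notes. The processed signal was background-subtracted and detrended within each array, per the file headers, with no scaling between arrays. Flags of 0 or 1 mark outlier, saturated and well-above-background spots in the deposited files. The deposited series matrix holds a score with mean 0 and SD 1 per array over 36424 features; its log base is not given in the sources used here, and it served as an alternative.

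Outlier spots were set missing, spots of a probe averaged on the log2 scale, and each array's 75th percentile subtracted. Both arrays of a replicate 3 were averaged. A probe was kept if all arrays of 1 or more groups read it well above background, which left 29797 of 41012. Kept probes were analysed in limma 3.58.1 under R 4.3.3 (9 animals, shared spread, prior degrees of freedom 2.69, two-sided, Benjamini-Hochberg), after the script was tested on simulated data. Tests by probe are of array signals, and the number of animals, 3 per group, limits the precision. Array names can be old.

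Members, 21 gene lists and class borders were chosen with earlier results of these data known. Named with values were members that passed, the largest 2 differences each way per class and comparison, and a set of main genes, and from the lists genes that passed, not all of them. Col5a1, Col27a1, Lamc3, Col9a2, Slc6a13, Aldh1a2, Vwf, Vtn, Th and Dbh fall outside this rule and were chosen after their values were seen.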

Additional observations from a re-analysis of the deposited data

How the results depend on the processing

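Matrix probes that passed between aged and young animals, 4 as reported, numbered 0 with no filter on dim probes, 2 when only the young and aged animals were fitted, 7 with 12 arrays and no slide term, and 0 to 4 when 1 animal was left out. Between middle-aged and young animals the count was 1 with no slide term, and for any age it was 2 with normexp, quantile normalization, the authors' processed values, the stricter filter or 1 probe per gene name, 4 with no slide term or an intensity trend, 0 without the filter, and 0 to 1 with 1 animal left out. Replicate numbers did not pair the animals (correlations −0.41 to 0.38), and with the replicate number as a block 0 passed in aged against young and 0 for any age. The laminin and nidogen median of −0.43 was −0.26 with normexp, −0.49 with quantile normalization, −0.53 in the authors' values and −0.50 with slide as a block (−0.50 to −0.33 with 1 animal left out); the glycoprotein median of −0.25 ranged from −0.40 to −0.01, the latter without young replicate 1. With 1 animal left out the other class medians were −0.43 to −0.17 for fibrillar collagens, −0.06 to 0.02 for basement membrane collagens and −0.11 to 0.09 for other collagens. Within slide 3 the medians were −0.13 for basement membrane collagens and −0.34 for other collagens. No called difference turned its sign, and 29 of 37 named genes kept theirs in every setting that was fitted, which leaves out the comparison within slide 3, where Col15a1 was −0.19 against 0.14 as reported. The causes of these shifts were not tested. Some of the fits held fewer animals or more probes. Of the collagens, 5 were too dim to test.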

Other observations

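What follows is a description with no test, and the points share arrays and normalization. It covers only probes that varied widely between the animals and carry a gene symbol, 1 probe per gene. Among these, the genes whose signal followed the first Lamb3 probe most closely over the 9 animals were listed after its values were seen. They were Duox2 (Pearson r 1.00), an oxidase gene, Wnt3 (0.99), and Prss22, Olr1343, Wnt2b, Ocil and Slc17a7 (0.98 each), followed by the syndecan Sdc1 (0.97). Duox2 read 0.78 in young replicate 2, 0.30 in middle-aged replicate 3 and −0.46 in aged replicate 3, and −5.31 to −1.75 in the other animals. Sdc1 read 2.55, 2.02 and 1.1 in the same 3 animals and −1.27 to 1.03 in the others. Slc17a7, a vesicular glutamate transporter gene, read −2.32, −3.10 and −3.40 in them and −6.56 to −4.47 elsewhere.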
